A study of Mus musculus with 4 samples.

Results

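Genes that cells switch on when oxygen runs short were followed on 3 arrays of floating mouse stem cells and 1 of adherent cells. The set was defined as Vegfa, Adm, Egln3, Bnip3, Higd1a, Car9, Hmox1, P4ha1, P4ha2 and Ndrg1, and its members were found as the probe sets whose only gene symbol in the platform annotation was one of these 10. Probe sets were found for 8 of the 10 genes, out of 8251 genes with a probe set of their own, and these 8 genes had 11 probe sets. Car9 and Egln3 matched no probe set, so their expression was not analysed here. Total RNA was hybridised to 4 Affymetrix MG_U74Av2 arrays. The neurosphere array held neurospheres, which are free-floating clusters grown from neural progenitors, here from E13.5 telencephalon in DMEM F12 with FGF2. Contamination by astrocytes, glia and oligodendrocytes is named in its labels, which give no strain or number of embryos. The suspension and aggregation arrays held the R1 mouse embryonic stem (ES) cell line as unattached embryoid bodies, cultured for 48 hours with LIF and beta-mercaptoethanol. The adherent array held R1 cells on gelatin with the same supplements, in standard conditions for undifferentiated growth. Both embryoid body arrays carry the same sample identifier, so they were taken as 2 replicates of one group, although separate cultures are not stated. Their titles name them apart as aggregation and suspension, so any difference between these cultures counts as replicate spread in the tests. Oxygen was not named as a treatment in any label, and cell type and culture form cannot be told apart for the neurospheres.

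Cells sense oxygen through prolyl hydroxylases such as Egln1 and Egln3, which mark the HIF alpha subunits for destruction through the von Hippel-Lindau protein. When oxygen is low the HIF alpha subunits last, pair with Arnt and bind short DNA elements with an RCGTG core near their target genes. The targets raise blood supply, glucose uptake and glycolysis, and they limit oxygen use in mitochondria. Oxygen reaches the inside of floating cell clusters by diffusion, and such clusters are a common setting for studies of this response.

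On the log2(scaled signal + 32) scale, 5 genes were at least 2-fold higher in suspension than in aggregation on at least 1 probe set. The promoters of the 4 that hold an ACGTG or GCGTG core are shown first. The fifth, Vegfa, holds neither core in its window and is not shown. Adm, low on both arrays, was 2.34 times as bright in suspension but did not reach 2-fold on this scale. Its window holds 2 CACGC and is not shown. The promoters were picked by these values and by holding a core, so the display shows no link between cores and values. The sequences are given with every ACGTG or GCGTG core in capitals on either strand (as CACGT or CACGC on the other strand). The sequences are from RefSeq on build GRCm38.p6, 5′ to 3′ on the strand of the gene, and end just before the annotated gene. Bnip3 lies on the minus strand of chromosome 7 and is shown at chr7:138909507-138909756. Higd1a lies on the minus strand of chromosome 9, at chr9:121857797-121858046. P4ha1 lies on the plus strand of chromosome 10, at chr10:59323046-59323196, and P4ha2 on the plus strand of chromosome 11, at chr11:54100674-54100923.
Bnip3: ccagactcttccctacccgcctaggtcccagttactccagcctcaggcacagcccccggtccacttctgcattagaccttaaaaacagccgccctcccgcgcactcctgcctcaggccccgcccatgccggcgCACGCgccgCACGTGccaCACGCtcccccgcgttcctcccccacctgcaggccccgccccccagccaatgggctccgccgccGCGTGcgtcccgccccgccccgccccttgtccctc
Higd1a: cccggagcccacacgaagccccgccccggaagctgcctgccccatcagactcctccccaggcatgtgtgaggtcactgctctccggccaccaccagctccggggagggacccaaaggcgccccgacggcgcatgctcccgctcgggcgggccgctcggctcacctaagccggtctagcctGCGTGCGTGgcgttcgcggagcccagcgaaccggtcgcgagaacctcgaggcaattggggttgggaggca
P4ha1: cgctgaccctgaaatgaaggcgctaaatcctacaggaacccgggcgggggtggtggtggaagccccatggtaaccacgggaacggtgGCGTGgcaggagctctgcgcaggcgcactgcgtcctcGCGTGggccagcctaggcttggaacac
P4ha2: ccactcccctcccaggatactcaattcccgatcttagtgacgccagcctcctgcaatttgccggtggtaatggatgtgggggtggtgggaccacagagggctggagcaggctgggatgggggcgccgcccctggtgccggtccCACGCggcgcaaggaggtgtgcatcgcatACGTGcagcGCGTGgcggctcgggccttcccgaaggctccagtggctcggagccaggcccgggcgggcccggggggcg
The Bnip3 stretch holds ACGTG on both strands, overlapping in a single CACGTG, together with 1 GCGTG and 2 CACGC. The CACGTG word is also the core of the E-box. Higd1a holds 2 overlapping GCGTG, P4ha1 holds 2 GCGTG in the 151 bases shown, and P4ha2 holds 1 ACGTG, 1 GCGTG and 1 CACGC. Of the 8 genes with probe sets, 6 had a promoter in the table, and Hmox1 and Ndrg1 were not listed. In the 250 bases before the listed start, 3 of the 6 (Bnip3, P4ha1 and P4ha2) held ACGTG on either strand, against 16.6% of the 32851 promoters in the table. The P4ha1 match lies beyond the 151 bases shown. A GCGTG on either strand was in 5 of the 6, all but Vegfa, against 28.2%, and these 5 were also the ones with at least one of the cores, against 38.6%. The promoters of Car9 and Egln3, whose expression was not measured, each held ACGTG and no GCGTG. A match is a description of letters and not of a bound site.

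The deposited arrays were on different scales. The suspension and adherent arrays both had a trimmed mean of 1501, the aggregation array 33.0 and the neurosphere array 29.9. All were set to one trimmed mean of 500 with 2% left out at each end, and the values below are these scaled MAS5 signals. The median signal was 178 to 242 and the 10th percentile 17.4 to 33.8 over the 4 arrays, both lowest on the adherent array. All 6 ES cell markers on the array (Pou5f1, Zfp42, Nanog, Sox2, Nr0b1 and Klf4) were above the array median in the R1 cultures, and 1 of 6, Sox2, in neurospheres. Neural progenitor markers summed to 52690 in neurospheres, of which Fabp7 gave 41870, and to 855 to 1412 in the R1 arrays. Nes, Sox3, Ptprz1 and Pax6 were also highest in neurospheres, although Pax6, at 105, lay under the array median. Vim was 333 in neurospheres, below suspension at 480 and above aggregation and adherent cells. The astrocyte markers summed to 5388 in neurospheres, 1286 in suspension, 537 in aggregation and 442 in adherent cells, and most of the neurosphere sum was Aldoc, which is also a hypoxia-inducible glycolytic gene. Oligodendrocyte markers summed to 1780 in neurospheres, against 478 to 1068 in R1 cells. The part of astrocytes and oligodendrocytes in the neurosphere values was not tested. Macrophage markers summed to 1602 in neurospheres and to 1449 to 1886 in R1 cells, endothelial markers to 687 and to 1719 to 1888, and red cell markers to 518 and to 254 to 423. In whole-culture RNA, fewer cells of a type and less RNA per cell cannot be told apart.

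The clearest feature of the hypoxia genes was a split between both embryoid body arrays, a comparison added after seeing the data. It has 1 array a side and no test, and it crosses the 2 deposited scales. Bnip3, P4ha1, Higd1a, Vegfa and 1 of 2 P4ha2 probe sets were 2.80 to 6.12 times as bright in suspension as in aggregation. Adm, at low signal, was 2.34 times as bright, whereas Hmox1 was lower in suspension. Over all probe sets tested, 8.34% were at least 2-fold higher in suspension and 6.89% lower, on the log2(signal + 32) scale. Ndrg1 lay at -0.15 and -0.64 in this pair on its 2 probe sets. Bnip3 was 3.75 times and P4ha1 2.72 times as bright in suspension as in adherent cells, while the aggregation array lay below adherent cells for both. In neurospheres, 1 of 2 Ndrg1 probe sets fell against adherent cells in limma's test. P4ha1, also high in suspension, and Adm, which entered the test only through its neurosphere signal, were brighter there than in adherent cells but did not pass (limma adjusted p = 0.33 and 0.28). Differences below are on the log2(signal + 32) scale, which understates changes at low signal.

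**Figure D1:**
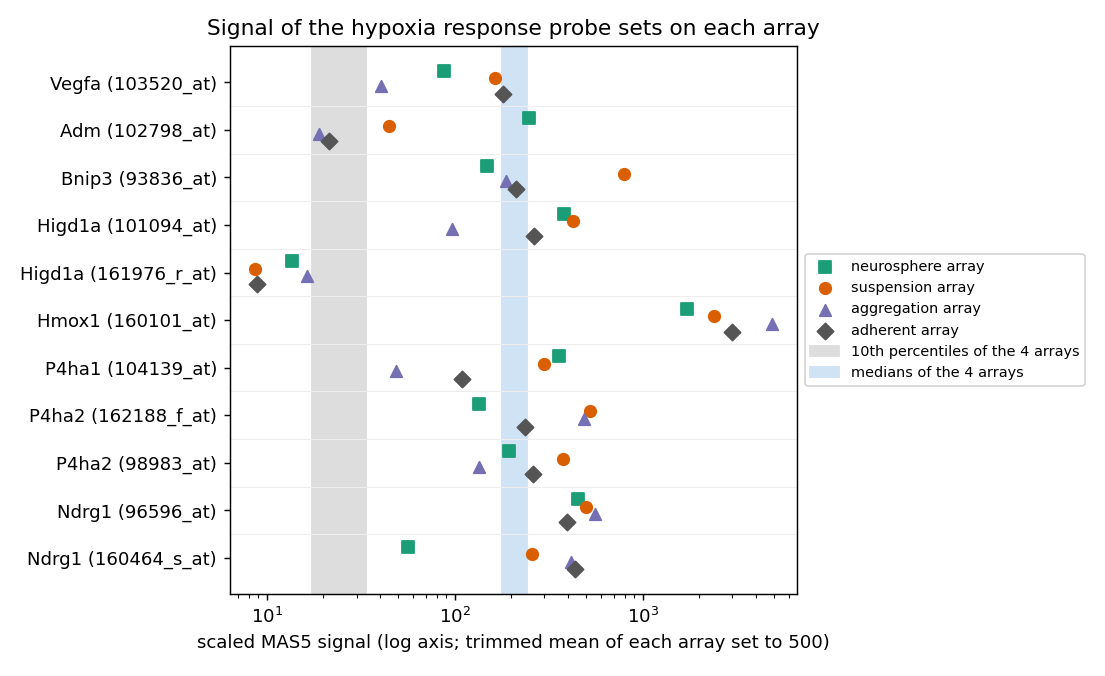
Scaled MAS5 signal (log axis) of the 11 member probe sets on the neurosphere, suspension, aggregation and adherent arrays, 1 point per array. The bands span the 10th percentiles (grey) and medians (blue) of the 4 arrays. The suspension point lies well right of the aggregation point for Vegfa, Bnip3, Higd1a (101094_at), P4ha1 and P4ha2 (98983_at). It also lies to the right for Adm, at 44.5 against 19.0, near the grey band.

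Bnip3 and Higd1a act at mitochondria. Bnip3, a mitochondrial receptor for mitophagy and a classic HIF target, had a signal of 148 in neurospheres, 792 in suspension, 188 in aggregation and 211 in adherent cells. The suspension array stood alone, and the other 3 lay close together. The Bnip3 difference from adherent cells was 1.76 in suspension, -0.15 in aggregation and -0.44 in neurospheres, and suspension minus aggregation was 1.91. Higd1a, a small protein of the inner mitochondrial membrane that associates with respiratory chain complexes, had 382 in neurospheres, 423 in suspension, 97.0 in aggregation and 264 in adherent cells on 101094_at. Here the aggregation array was the low one, at -1.20 against adherent cells. Suspension lay at 0.62 and neurospheres at 0.49, and suspension minus aggregation was 1.82. A second Higd1a probe set, 161976_r_at, had 8.68 to 16.3 on all 4 arrays, below the 10th percentile of each, and was not tested.

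P4ha1 and P4ha2 encode the alternative catalytic alpha subunits of collagen prolyl 4-hydroxylase, which matures collagen with oxygen as a substrate. P4ha1 had a signal of 359 in neurospheres, 299 in suspension, 48.8 in aggregation and 110 in adherent cells. Neurospheres and suspension were both high, at 1.47 and 1.22 against adherent cells, and aggregation was low at -0.81. Suspension minus aggregation, at 2.03, was the largest such difference among the member probe sets. For P4ha2, probe set 98983_at gave 194 in neurospheres, 376 in suspension, 134 in aggregation and 261 in adherent cells, with suspension highest and aggregation lowest. The other P4ha2 probe set, 162188_f_at, gave 134 in neurospheres, 526 in suspension, 485 in aggregation and 236 in adherent cells. On that probe set both embryoid body arrays were high together, at 1.06 and 0.95 against adherent cells, so the 2 P4ha2 probe sets disagreed about aggregation. The _f_at class can detect related transcripts.

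Vegfa and Adm are secreted signals to blood vessels. Vegfa, the main growth factor of new vessels, had a signal of 88.0 in neurospheres, 164 in suspension, 40.6 in aggregation and 181 in adherent cells. No floating array exceeded the adherent one, with differences of -0.82 in neurospheres, -0.12 in suspension and -1.55 in aggregation, and the adherent array alone reached its array median. Suspension minus aggregation was 1.43. Adm, which encodes the vasodilator peptide adrenomedullin, had 248 in neurospheres, 44.5 in suspension, 19.0 in aggregation and 21.4 in adherent cells. It reached the array median in neurospheres alone, so it was tested only because it was high there. Adm lay at 2.39 in neurospheres, 0.52 in suspension and -0.07 in aggregation against adherent cells. Its aggregation signal was under the 10th percentile of that array, and the R1 values were not told apart from background. The size of the neurosphere difference is therefore set largely by the value added before the log, and it was 3.48 with 1 added and 1.52 with 100 added.

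Hmox1 encodes haem oxygenase 1, which breaks down haem and also responds to oxidative stress through NRF2. Hmox1 had a signal of 1713 in neurospheres, 2401 in suspension, 4853 in aggregation and 3000 in adherent cells. Aggregation was highest at 0.69 against adherent cells, with suspension at -0.32 and neurospheres lowest at -0.80. Suspension minus aggregation was -1.01. Ndrg1, a stress-responsive protein of cell growth and differentiation, was measured by 2 probe sets. Probe set 96596_at varied little, with 453 in neurospheres, 498 in suspension, 557 in aggregation and 394 in adherent cells. Probe set 160464_s_at gave 56.2 in neurospheres, 256 in suspension, 417 in aggregation and 438 in adherent cells, with neurospheres far below the rest at -2.41 against adherent cells. The 2 probe sets disagreed on neurospheres, where 96596_at lay at 0.19.

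**Figure D2:**
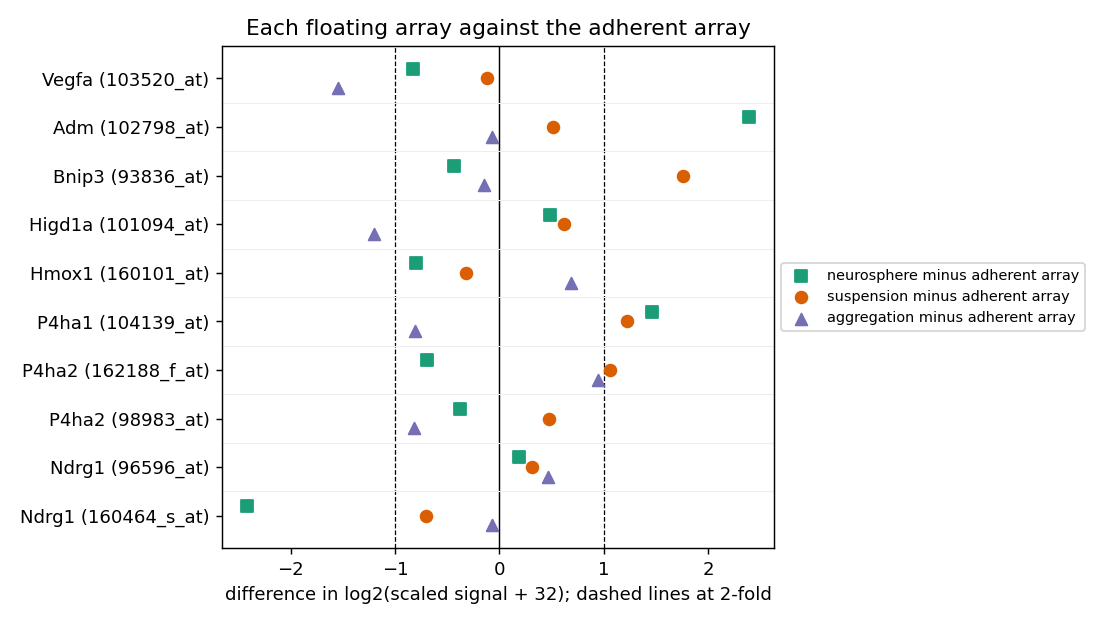
Difference in log2(scaled signal + 32) between each floating array (neurosphere, suspension, aggregation) and the adherent array for the 10 member probe sets that reached the signal filter, 1 point per array, with dashed lines at 2-fold. Bnip3 stands out to the right in suspension at 1.76, Adm in neurospheres at 2.39, and Ndrg1 (160464_s_at) to the left in neurospheres at -2.41.

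Counted one by one, 10 of the 11 member probe sets reached the array median on at least 1 array and entered the counts. Several did so only on arrays where they were high, so these counts describe the set and support nothing by themselves. In suspension, 3 of 10 were at least 2-fold above adherent cells (Bnip3, P4ha1 and P4ha2 on 162188_f_at) and 0 were 2-fold below, against 13.6% and 7.82% of the 8031 probe sets tested. In aggregation, 0 were above and 2 below (Vegfa and Higd1a), against 12.4% and 8.18%. In neurospheres, 2 were above (Adm and P4ha1) and 1 below (Ndrg1 on 160464_s_at), against 23.7% and 18.5%. The 3 comparisons share the single adherent array, which has no replicate, so none of these differences has a replicate check. The median difference of the 10 was 0.50 in suspension, -0.11 in aggregation and -0.41 in neurospheres, beside 0.12, 0.09 and 0.20 over all probe sets tested. With arrays scaled to one median the 2-fold count in suspension was 1 higher and 1 lower, and after quantile normalization 1 higher and 0 lower, with Bnip3 the one higher at 1.39 and 1.54.

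Set directly against each other, suspension was at least 2-fold above aggregation for 5 of the 10 probe sets (P4ha1, Bnip3, Higd1a, Vegfa and P4ha2 on 98983_at) and at least 2-fold below for 1 (Hmox1). Over all probe sets tested these shares were 8.34% and 6.89%. Suspension was the higher for 7 of the 10, beside 51.3% of all probe sets. The median difference was 0.94 for the members and 0.02 for all probe sets. This comparison leaves out the adherent array, but it has 1 array a side and no test, and nothing in the labels says how the aggregation and suspension cultures differed. Both arrays also come from the 2 deposited scales, and the scale cannot be told apart from the culture in this pair. The same holds for aggregation and for neurospheres, each against adherent cells. Within a scale, suspension against adherent cells gave 1.76 for Bnip3, 1.22 for P4ha1, 0.62 for Higd1a, 0.48 for P4ha2 on 98983_at, -0.12 for Vegfa and -0.32 for Hmox1. Neurospheres against aggregation gave -0.29 for Bnip3, 2.28 for P4ha1, 1.68 for Higd1a, 0.44 for P4ha2 on 98983_at, 0.73 for Vegfa and -1.49 for Hmox1. The ratio of 3' to 5' signal of the Gapdh control was 0.946 in neurospheres, 0.893 in suspension, 0.880 in aggregation and 0.804 in adherent cells, and that of the actin control was 1.13, 1.11, 1.20 and 1.03 in the same order. The part of RNA quality in the split was not tested.

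In limma's test of the embryoid body mean against adherent cells, 0 of the 10 member probe sets passed in either direction, 0 had an unadjusted p under 0.05, and the background was 0.261% called higher and 0.0872% called lower. Without the intensity trend the same test called 0 of all 8031 probe sets, so that setting says nothing about the 10. The split between the arrays was large beside the difference of the means. Bnip3 averaged 490 ± 427 in embryoid bodies (SD, n = 2) and 211 in adherent cells, a difference of 0.81 ± 0.71 (SE, limma adjusted p = 0.653). P4ha1 averaged 174 ± 177 in embryoid bodies and 110 in adherent cells, at 0.21 ± 0.87 (limma adjusted p = 0.934). The largest difference was that of P4ha2 on 162188_f_at, with 505 ± 28.6 in embryoid bodies and 236 in adherent cells, at 1.004 ± 0.58 (limma adjusted p = 0.456). The single residual degree of freedom came from these 2 arrays, which were deposited on different scales. Each SE rested mostly on probe sets of like signal and less on the probe set's own split.

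**Figure D3:**
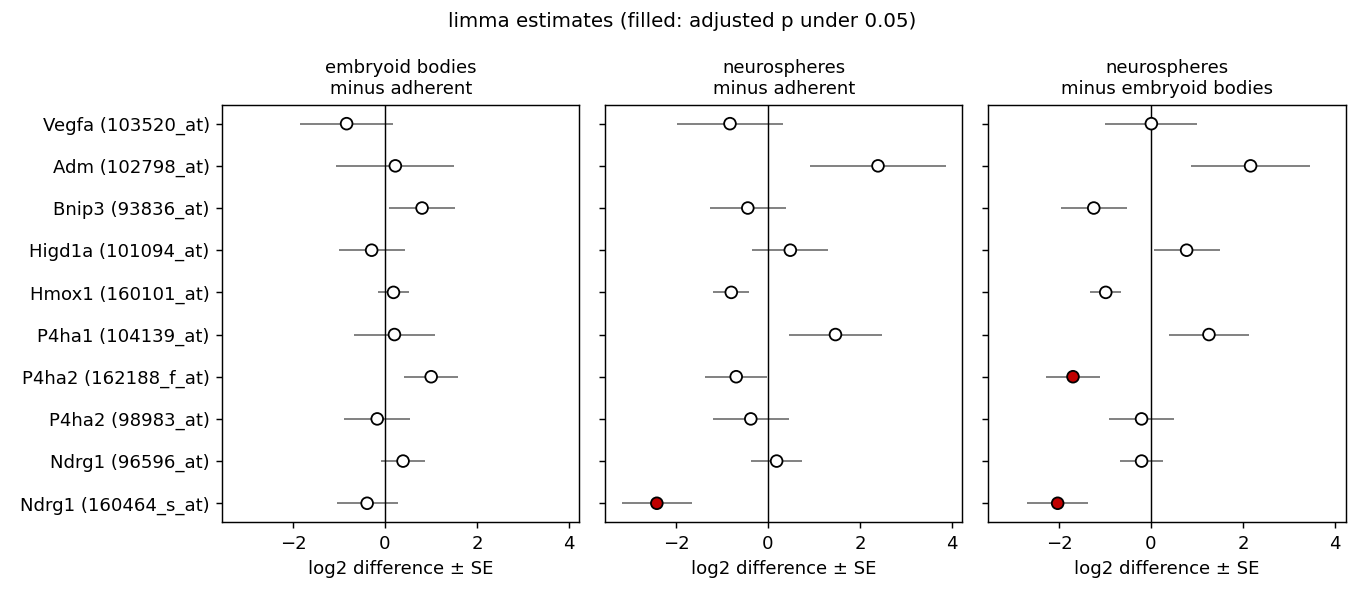
limma log2 differences (points) with their SE (bars) for the 10 tested member probe sets in embryoid bodies against adherent cells, neurospheres against adherent cells, and neurospheres against embryoid bodies. Filled points passed an adjusted p of 0.05: Ndrg1 (160464_s_at) at -2.41 and -2.03 in both neurosphere panels and P4ha2 (162188_f_at) at -1.69 in the last.

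In neurospheres, 0 of the 10 rose against adherent cells and 1 fell, beside 6.6% and 10.4% of all probe sets tested. The neurosphere and adherent arrays also differ in deposited scale. The one was Ndrg1 on 160464_s_at, which fell by 2.41 ± 0.77 on the log2 scale (SE, limma adjusted p = 0.0328), a call that ended without the intensity trend and without the signal filter. This probe set is of the _s_at class, and the other Ndrg1 probe set, 96596_at, lay at 0.19 and did not pass. Adm, at 2.39 ± 1.48, did not pass (limma adjusted p = 0.28), and P4ha1, at 1.47 ± 1.01, did not pass (limma adjusted p = 0.33). Against embryoid bodies, 0 of the 10 rose and 2 fell in neurospheres, beside 7.17% and 9.72% of all probe sets tested. Ndrg1 on 160464_s_at had 56.2 in neurospheres and 336 ± 114 in embryoid bodies (SD, n = 2), and fell by 2.03 ± 0.66 (limma adjusted p = 0.0387). P4ha2 on 162188_f_at had 134 in neurospheres and 505 ± 28.6 in embryoid bodies, and fell by 1.69 ± 0.58 (limma adjusted p = 0.0488). Their other probe sets lay at -0.20 and -0.21 and did not pass, and both calls ended with 100 added, without the filter and without the trend. Hmox1 had 1713 in neurospheres and 3627 ± 1734 in embryoid bodies, and lay at -0.98 ± 0.34 just outside the threshold (limma adjusted p = 0.0523). Bnip3 lay at -1.24 ± 0.71 (limma adjusted p = 0.266).

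The regulators of the response were read from a list of 22 symbols, older spellings included, of which 17 genes were on the array and tested. Against adherent cells, 0 rose and 3 fell in neurospheres, and 0 rose or fell in embryoid bodies, beside gene-level shares of 7.01% and 10.9%, and of 0.233% and 0.117%. Hif1a, the oxygen-regulated HIF subunit, had 2286 in neurospheres, 2938 in suspension, 3361 in aggregation and 5476 in adherent cells, and fell by 1.25 in neurospheres (limma adjusted p = 0.00991; -1.21 on its other probe set, limma adjusted p = 0.0147). Both Hif1a probe sets are of the _f_at class, which can detect related transcripts. The chaperone gene Hsp90aa1 fell by 2.001 in neurospheres (limma adjusted p = 0.000168), and Cul2, the cullin of the von Hippel-Lindau ligase, fell by 1.345 (limma adjusted p = 0.0285). The 16 list genes named by the rule were picked because they passed against adherent cells, so their passing is no separate result. All 16 calls in neurospheres ended without the intensity trend, where 6 of 8031 probe sets were called higher and 10 lower. The Cul2 call also ended after quantile normalization (-1.24) and without the filter, and in embryoid bodies Hif1a and Cul2 passed with median scaling (-1.16 and -1.45). Of the 17, 4 were at least 2-fold higher in suspension than in aggregation and 0 lower, beside 8.06% and 6% of the 6002 genes. These 4 genes were chosen after their values were seen. Egln1, the main oxygen-sensing prolyl hydroxylase and itself a HIF target, had 785 in neurospheres, 351 in suspension, 66.9 in aggregation and 114 in adherent cells. In neurospheres Egln1 lay at 2.48 (limma adjusted p = 0.057) and passed with median scaling (2.11) and with 100 added (2.05). Epas1, the HIF2 alpha gene, had 154 in neurospheres, 244 in suspension, 75.5 in aggregation and 136 in adherent cells, and the ubiquitin ligase genes Siah1a and Siah2 were 1.01 and 1.06 higher in suspension than in aggregation.

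Glucose transport and glycolysis is the best-known arm of the HIF program, and all 17 of its listed genes on the array were tested. Suspension was above aggregation for 15 of the 17, beside 51.8% of all genes, and at least 2-fold above for 5 (Pfkfb3, Pdk1, Aldoc, Slc2a1 and Pfkl, listed after their values were seen), beside 8.06% of all genes, with a median difference of 0.89 beside 0.03 over all genes (0.82 and 0.86 under median scaling and quantile normalization). The other Pfkfb3 probe set lay at -0.24. In neurospheres 2 of the 17 rose and 4 fell against adherent cells, beside 7.01% and 10.9% of all genes. Aldoc, an aldolase of brain, rose by 5.16 (limma adjusted p = 4.05e-06). The transporter gene Slc2a3 fell by 4.47 (limma adjusted p = 3.43e-09), the hexokinase gene Hk2 fell by 3.83 (limma adjusted p = 2.03e-06), and the transporter gene Slc2a1 fell by 3.001 (limma adjusted p = 0.000284). The others, named after their values were seen, were the phosphofructokinase gene Pfkm, which rose by 2.24, and Pdk1, which fell by 2.12, a call that also ended without the filter. A dimmer Hk2 probe set, not tested, lay at 2.17. Pdk1, whose product limits entry of pyruvate into mitochondria, had 307 in neurospheres, 2355 in suspension, 818 in aggregation and 1440 in adherent cells.

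Of 50 other hypoxia-inducible genes listed, 42 were on the array and 30 were tested. Their suspension minus aggregation median was 0.15, with 3 at least 2-fold higher and 5 at least 2-fold lower, beside 8.06% and 6% of all genes. These 8 genes were picked out after their values were seen. Higher were Epo, the nuclear receptor gene Rora at 2.15 (0.04 on its other probe set) and Igfbp2 at 1.10. Epo, the hormone of red cell formation, had 34.3 in neurospheres, 308 in suspension, 25.6 in aggregation and 22.0 in adherent cells. It reached the filter through the suspension array alone. Lower were the VEGF receptor gene Flt1 at -1.997 (0.34 on its other probe set), Igfbp1 at -1.62, the lipoprotein receptor gene Vldlr at -1.42, Rragd at -1.38 and the endothelin gene Edn1 at -1.34 (0.98 on its other probe set). In neurospheres 3 of the 30 rose and 3 fell against adherent cells, beside 7.01% and 10.9% of all genes. Igfbp2 and Igfbp3, carriers of insulin-like growth factors, rose by 3.02 (limma adjusted p = 9.1e-06) and 2.90 (limma adjusted p = 0.00417). The growth factor gene Igf2 fell by 2.06 (limma adjusted p = 0.00143), and the histone demethylase gene Kdm3a fell by 1.815 (limma adjusted p = 0.000837). The others, named after their values were seen, were P4hb, which encodes the beta subunit that partners P4ha1 and P4ha2 and rose by 1.42 (limma adjusted p = 0.00514), and the glycogen synthase gene Gys1, which fell by 1.60. A dimmer Igf2 probe set, not tested, lay at 0.42.

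For Hmox1, 11 of 13 listed NRF2 and haem genes on the array were tested. Their suspension minus aggregation median was -0.07, and 0 of 11 were 2-fold higher or lower in that pair, beside 8.06% and 6% of all genes. Hmox1 itself lay at -1.01. In embryoid bodies against adherent cells 1 rose and 0 fell, beside 0.233% and 0.117% of all genes. That gene was Fth1, the heavy chain of the iron store ferritin, with 13920 in neurospheres, 18270 in suspension, 16850 in aggregation and 6268 in adherent cells, at 1.48 ± 0.27 in embryoid bodies (SE, limma adjusted p = 0.0149). It also rose in neurospheres, by 1.15 ± 0.32 (limma adjusted p = 0.0138). Its other probe set lay at -0.02 in embryoid bodies and 0.56 in neurospheres and did not pass, and the probe set that rose is of the _r_at class. Both Fth1 calls ended without the filter and without the trend, and the neurosphere call also ended with median scaling (0.71).

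**Figure D4:**
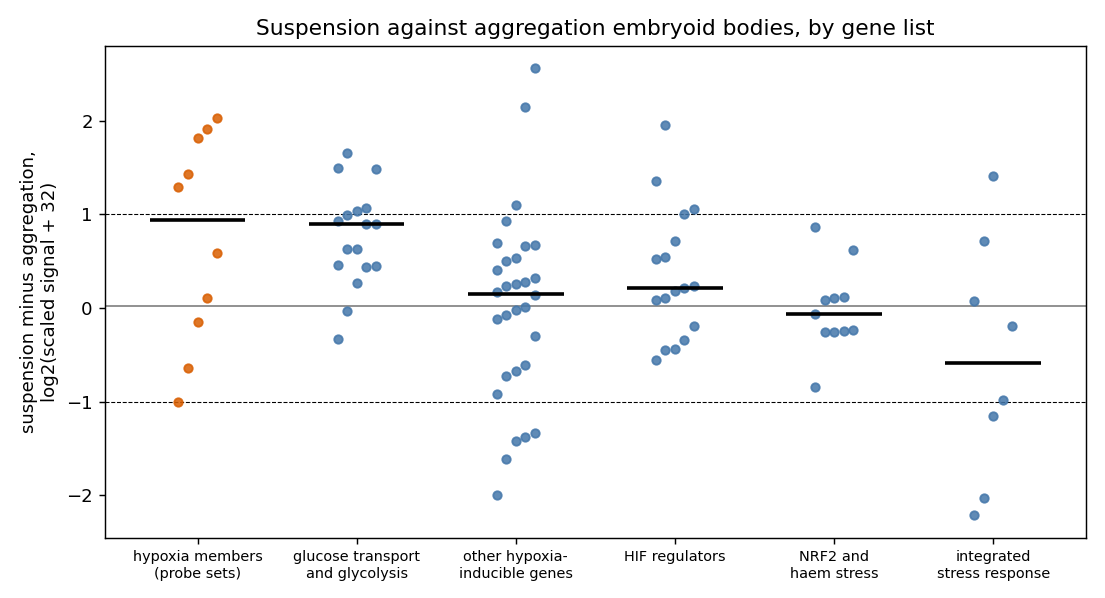
Difference between the suspension and aggregation arrays in log2(scaled signal + 32) for the 10 tested member probe sets (orange) and for the tested genes of 5 lists (blue), 1 point per probe set or gene. Black bars mark each median (0.94 for the members, 0.89 for glycolysis), the grey line is the median of all 6002 genes at 0.03, and dashed lines are at 2-fold.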

How the data were processed

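Per the submitters' processing notes, the authors computed the deposited intensity values with MAS5, a single linear signal per probe set. Not given in the sources used here are its version, scaling target, settings and detection calls, so low signals were not separated from background. Of 12488 probe sets, 66 controls were left out. The platform annotation paired 10833 of the other 12422 with 1 gene, 396 with several and 1193 with none. Arrays were scaled to one trimmed mean of 500, 32 was added before log2, and 8031 probe sets at or above the array median on at least 1 array were kept. limma 3.58.1 (R 4.3.3) was fitted to all 4 arrays in 3 groups with an intensity trend, tests were two-sided, and p-values were adjusted by Benjamini-Hochberg over the 8031. The residual degrees of freedom were 1 and the prior 20.46. The neurosphere and adherent groups, with 1 array each, took their spread from the embryoid bodies. Each SE rests mostly on the prior and less on the probe set's own split. The prior is the spread between the 2 embryoid body arrays over probe sets of like signal. The p-values measure only this spread, which also crosses the 2 deposited scales. The spread may be technical or a difference between the aggregation and suspension cultures, and these cannot be told apart. The code was tested on simulated data. The number of arrays limits the precision.

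The members, lists and tests were chosen with earlier results of these data known. Named genes were all members with every probe set and, per list, up to 4 called genes by size against adherent cells, each by its brightest probe set. Genes outside this rule are marked in the text as picked after seeing values. The comparisons of suspension with aggregation, and within a deposited scale, were added after seeing the data. Alternatives were 1 or 100 added, no filter, median scaling, quantile normalization, no intensity trend, the brightest probe set per gene, folds of 1.5 and 3, and leaving out either embryoid body array.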

Additional observations from a re-analysis of the deposited data

How the results depend on the processing

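Of 90 recomputed counts of member probe sets, 63 stayed within 1.5 times the original and 27 moved. At 2-fold against adherent cells, suspension had 3 higher and 0 lower, aggregation 0 and 2, and neurospheres 2 and 1. With 1 added, aggregation 1 higher and 3 lower, and neurospheres 2 lower. With 100 added, suspension had 1 higher and aggregation 0 lower. With median scaling, suspension had 1 higher and 1 lower, aggregation 4 lower and neurospheres 4 lower. After quantile normalization, suspension had 1 higher, aggregation 4 lower and neurospheres 3 lower. With the brightest probe set, neurospheres had 0 lower. At a fold of 1.5, 1 was lower in suspension, 2 were higher and 4 lower in aggregation, and 4 were lower in neurospheres. At a fold of 3, suspension had 1 higher, aggregation 0 lower and neurospheres 1 higher. Shares over all probe sets were counted at the main setting only, so these fold counts are no result particular to the members. limma called 1 lower in neurospheres against adherent cells and 2 against embryoid bodies. These counts were 2 and 3 with median scaling, 0 and 0 without the filter, 0 and 0 without the trend, and 0 and 1 with the brightest probe set, and the second was 0 with 100 added. Over all 8031 probe sets, 833 and 781 were called lower, 1476 and 937 with median scaling, and 10 and 82 without the trend. Without the filter 559 and 521 of 12422 were called lower, and with the brightest probe set 727 and 687 of 6843. With 100 added the second was 718. The cause was not tested.

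In embryoid bodies against adherent cells, Adm (0.23) was -0.16 after quantile normalization, Hmox1 (0.19) was -0.18 with median scaling, and P4ha1 (0.21) was -0.09 and -0.15 under both. Ndrg1 on 96596_at in neurospheres against adherent cells (0.19) was -0.22 with median scaling, and Vegfa in neurospheres against embryoid bodies (0.01) was -0.036 with 100 added, -0.04 with median scaling and -0.08 after quantile normalization. None of these had passed the test. Hmox1 passed in both neurosphere contrasts with median scaling (-1.23 and -1.05). Suspension minus aggregation kept its sign for all 10 member probe sets with median scaling and after quantile normalization. An added value cannot change this sign, only the size of the difference. Over these settings the difference was 1.63 to 2.07 for Bnip3 and 1.42 to 2.59 for P4ha1. None of the settings parts the culture from the deposited scale.

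The median of all probe sets against adherent cells was 0.12 in suspension, 0.09 in aggregation and 0.20 in neurospheres, and -0.26, -0.22 and -0.21 with median scaling. Neurospheres against adherent cells had 530 probe sets called higher and 833 lower, 357 and 1476 with median scaling, and 6 and 10 without the trend. Embryoid bodies against adherent cells had 21 and 7, 40 and 390 with median scaling, and 0 and 0 without the filter or the trend (1272 and 781 probe sets at an unadjusted p under 0.05). The 16 list genes named by rule were picked because they were called against adherent cells, and all 16 calls in neurospheres ended without the trend. Leaving out either embryoid body array leaves no residual degree of freedom, so no test was made, and the values are those of the single arrays. No paired analysis was possible because the groups share no replicate numbers in the labels.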

Other observations

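The integrated stress response is used by cells under amino acid shortage and protein misfolding. Of 8 listed genes of this response on the array, all tested, 3 were higher in suspension than in aggregation by any amount, beside 51.8% of all genes. Of the 8, 3 were at least 2-fold lower in suspension than in aggregation and 1 was higher (Ppp1r15a at 1.41, picked after its value was seen), beside 6% and 8.06% of all genes. Herpud1, a protein of endoplasmic reticulum quality control, had 112 in neurospheres, 147 in suspension, 697 in aggregation and 988 in adherent cells. Trib3, a target of Atf4 and Ddit3, had 25.8 in neurospheres, 468 in suspension, 1081 in aggregation and 1817 in adherent cells. Ddit3, the CHOP transcription factor, chosen after its values were seen, had 59.0 in neurospheres, 92.8 in suspension, 548 in aggregation and 461 in adherent cells. In neurospheres 4 of the 8 fell against adherent cells in limma's test and 0 rose, beside 10.9% and 7.01% of all genes. Trib3 fell by 5.0 (limma adjusted p = 4.03e-06), Herpud1 fell by 2.82 (limma adjusted p = 0.0136), the asparagine synthetase gene Asns fell by 2.31 (limma adjusted p = 1.46e-05), and Atf4 fell by 1.62 (limma adjusted p = 0.00417). All 4 calls ended without the intensity trend, and those of Herpud1 and Atf4 also without the filter. With median scaling Ddit3 also passed in neurospheres (-2.81), and Herpud1 and Trib3 passed in embryoid bodies against adherent cells (-1.85 and -1.67).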
